A study of Mus musculus with 2 samples.

Results

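Lone Ehf peaks are called regions of Ehf ChIP-seq enrichment that stand far from every other called region of the genome. They were taken from the deposited list of Ehf ChIP-seq peaks in mouse corneal epithelium. A peak on chromosomes 1 to 19 was called lone when the edge of the nearest other peak, on either side, was more than 300 kb away, and the first and last peak of each chromosome were left out. This gave 628 lone peaks among 15049 eligible ones, or 4.17% (95% Wilson interval 3.87 to 4.50%). The whole list holds 15384 peaks, of which 15087 are autosomal, and the 14459 autosomal peaks that are not lone served as the comparison.

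The study used wild-type mice aged 2 to 3 months. Their strain is CB6 in the growth protocol and C57Bl/6 in the strain field. Corneal epithelium from 15 mice made up a single pool. For the Ehf library, an antibody named ESE-3A (E-15), ESE-3 being another name for Ehf, was applied to 24 ug of sheared chromatin. An input library from unprecipitated chromatin was sequenced beside it, both with single-end reads of 50 bp. Each group has 1 library, and no values of the input were analysed here. The list holds no read counts, so the depth behind each peak is unknown.

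Ehf is a transcription factor of the ETS family, whose members share a winged-helix domain that contacts DNA around a GGAA core. It is made mainly in epithelia, where it is known for its part in differentiation. The corneal epithelium is the stratified sheet that covers the front of the eye. In ChIP-seq, a peak is a stretch where precipitated fragments pile up above background. Bound regions of a transcription factor often lie in groups around the genes it regulates. Genes near the peaks are not analysed here, because no annotation of the build of the files, mm9, was used.

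The members were chosen by their positions in the list that also holds their widths and scores. All values below therefore describe 1 list, and no difference between lone and other peaks was tested. Intervals cover counting error only and treat peaks as independent, which neighbours in a single library are not.

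Lone peaks sat between long empty stretches. The nearest other peak lay 465 kb away at the median, with quartiles of 365 and 642 kb and a range from 300.2 kb to 2.78 Mb. On the emptier side, the next peak was 880 kb away at the median and 5.89 Mb at most. For other autosomal peaks the nearest neighbour was 27.8 kb away at the median. Of the lone peaks, 269 (42.8%) were over 500 kb and 46 were over 1 Mb from any other peak. Around a lone peak, a median of 4 other peaks lay within 1 Mb on either side, with quartiles of 2 and 7, against 18 around other peaks, with quartiles of 12 and 26. Of the 15068 gaps between neighbouring autosomal peaks, 1939 (12.9%) were longer than 300 kb. These gaps took up 58.3% of the span between the first and the last peaks of the chromosomes, and a lone peak is one with such a gap on both sides.

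Some lone peaks followed one another. The next peak after a lone one has a gap of over 300 kb on one side by definition, which raises its chance of being lone, so the counts that follow are a description of the positions. Of the 628, 360 (57.3%) had a lone peak as their next peak on at least one side, and 106 had one on both sides. Taken as unbroken series, they formed 268 single lone peaks, 64 series of 2 and 63 series of 3 or more. The longest series lay on chromosome 1 and held 10 lone peaks in 10.3 Mb, from 142055562 to 152383449. Its members scored from 58.7 to 344, and 4 of them were under 200 bp wide. The highest of them, chr1:147432574-147432871, was 297 bp wide and had its neighbours 1073 and 723 kb away. The lowest, chr1:151812377-151812719, scored 58.7 and had 2573 kb of sequence without a peak before it. The next series in length held 6 lone peaks each, on chromosomes 3, 4, 5 and 15. The one on chromosome 5, from 82634399 to 87233853, had no peak under 200 bp, and its highest score was 125. The one on chromosome 15, from 15251194 to 24432802, had 3 such peaks and a highest score of 233.

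Lone peaks were narrower than the rest of the list. Their median width was 302.5 bp (95% interval for the median 273 to 326 bp), with quartiles of 162 and 409 bp. Other autosomal peaks had a median width of 371 bp (368 to 374 bp), with quartiles of 241 and 454 bp, which is 68.5 bp more. Widths in both sets were concentrated below 200 bp and again around 350 to 450 bp. The share of peaks under 200 bp was 35.5% among lone peaks (223 of 628, 95% Wilson interval 31.9 to 39.3%) and 21.2% among other peaks (3059 of 14459, 20.5 to 21.8%), so the intervals did not overlap. The single bin from 150 to 174 bp held 27.1% of the lone and 15.8% of the other peaks. The narrow peaks of both sets had nearly the same width, with medians of 156 and 157 bp. The wide end of the list was thinner among lone peaks. Peaks over 450 bp made up 15.8% of them (13.1 to 18.8%) against 25.6% of the others (24.9 to 26.3%). No lone peak was wider than 1170 bp, while the widest of the other peaks reached 6834 bp. A maximum also depends on the number of peaks, which was 628 against 14459. Widths of 1000 bp or more were found for 3 lone peaks (0.478%) and 133 other peaks (0.920%).

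**Figure D1:**
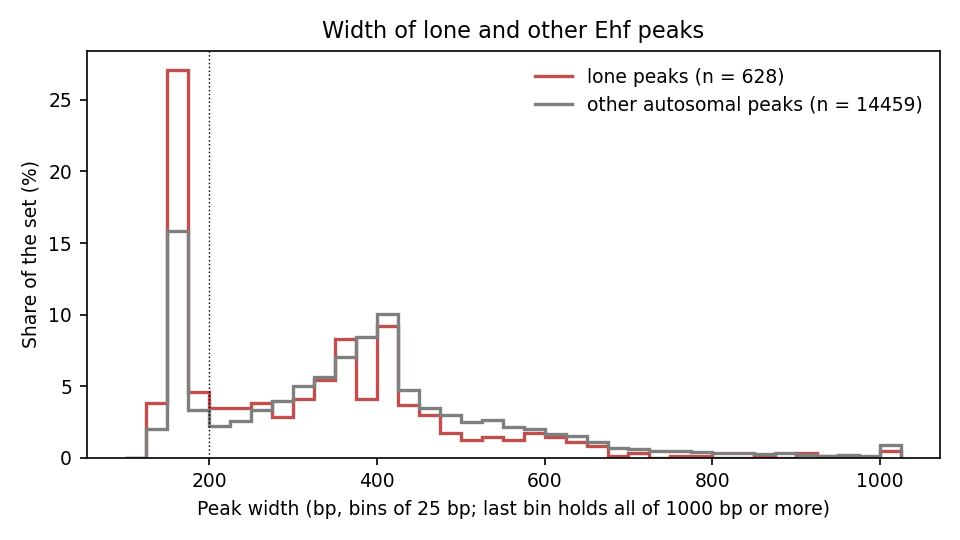
Share of each set (y axis, %) by peak width (x axis, bins of 25 bp, the last one open) for 628 lone peaks and 14459 other autosomal peaks. The dotted line marks 200 bp. The lone peaks stand above the others in the bin from 150 to 174 bp (27.1% against 15.8%) and below them at most widths over 450 bp.

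Read the other way, 6.79% of all autosomal peaks under 200 bp were lone (95% Wilson interval 5.98 to 7.71%). The share was 4.23% at 200 to under 350 bp (3.61 to 4.96%), 3.51% at 350 to 450 bp (3.01 to 4.08%) and 2.61% above 450 bp (2.15 to 3.16%). The lone share was lower in each wider class, and the intervals of adjoining classes from 200 bp upwards overlapped.

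The authors' score, whose meaning is not stated in the list, was slightly higher for lone peaks. Their median score was 91.5 (95% interval for the median 88.1 to 97.0), with quartiles of 68.7 and 141 and a range from 50.1 to 659. For other autosomal peaks the median was 85.8 (84.8 to 86.7), with quartiles of 66.8 and 124 and a highest score of 3100. The difference of medians was 5.62 score units. Narrow peaks score high in this list and made up a larger share of the lone peaks, so scores are given by width next.

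Within width classes, the medians of lone and other peaks lay closer together than over all widths. Under 200 bp the median score was 141 for lone and 139 for other peaks, a difference of 2.57. At 200 to under 350 bp the medians were 77.0 and 76.3, at 350 to 450 bp they were 68.3 and 69.5, and above 450 bp they were 97.3 and 97.5. The differences ran from -1.23 to 2.57 score units. In all 4 classes the intervals for the lone and the other median overlapped. Weighted by the number of lone peaks in each class, the difference was 0.727. With peaks of 200 bp or more pooled, lone peaks had a median score of 76.6 and the other peaks 78.8.

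**Figure D2:**
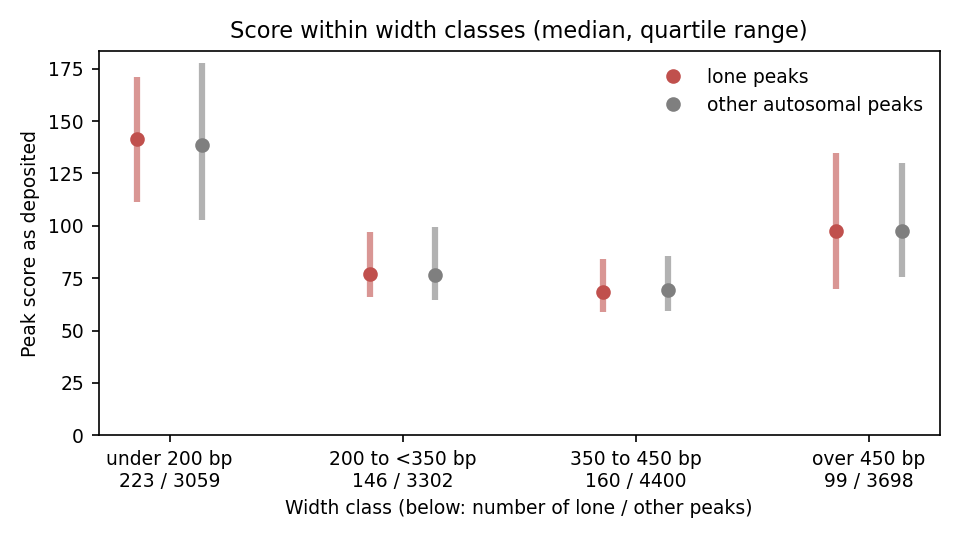
Deposited peak score (y axis) in 4 width classes (x axis, with the number of lone and other peaks). Points are medians and bars run from the lower to the upper quartile. The medians of lone and other peaks differ by at most 2.57 units in any class, while the classes themselves range from 68.3 to 141 among lone peaks.

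The lone share was also taken by score within a width. Among autosomal peaks of 200 bp or more, split into 4 equal groups by score, 3.87% of the lowest group (scores up to 63.6) were lone (95% Wilson interval 3.23 to 4.63%). The middle groups had 3.36% and 3.57%, and the highest had 2.96% (2.40 to 3.63%), so the intervals of the lowest and the highest group overlapped. Among peaks under 200 bp the lone share was 5.51% in the lowest group (4.15 to 7.30%), 6.99% in the second, 8.89% in the third (7.13 to 11.0%) and 5.85% in the highest (4.44 to 7.68%). It did not move steadily with the score.

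Narrow share and score were also followed over the whole range of distances. The share of narrow peaks was 15.5% where the nearest peak lay within 10 kb (95% Wilson interval 14.4 to 16.6%, n = 4134). It was 22.4% at 10 to 50 kb (21.3 to 23.5%), 23.3% at 50 to 100 kb (21.7 to 24.99%) and 26.1% at 100 to 300 kb (24.3 to 28.0%, n = 2230). It was 34.0% at 300 to 500 kb (29.3 to 39.0%, n = 359), 36.3% at 500 kb to 1 Mb (30.3 to 42.8%, n = 223) and 43.5% beyond 1 Mb (30.2 to 57.8%, n = 46). The share thus stood higher in each class of greater distance, and the intervals of adjoining classes were separate between the first and the second class and across 300 kb. Those of the other adjoining classes overlapped. Over the same classes the median width went from 388 bp within 10 kb to 242.5 bp beyond 1 Mb. The median score of peaks of 200 bp or more stayed between 75.5 and 80.0 in all 7 classes, and that of narrow peaks between 136 and 153.

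**Figure D3:**
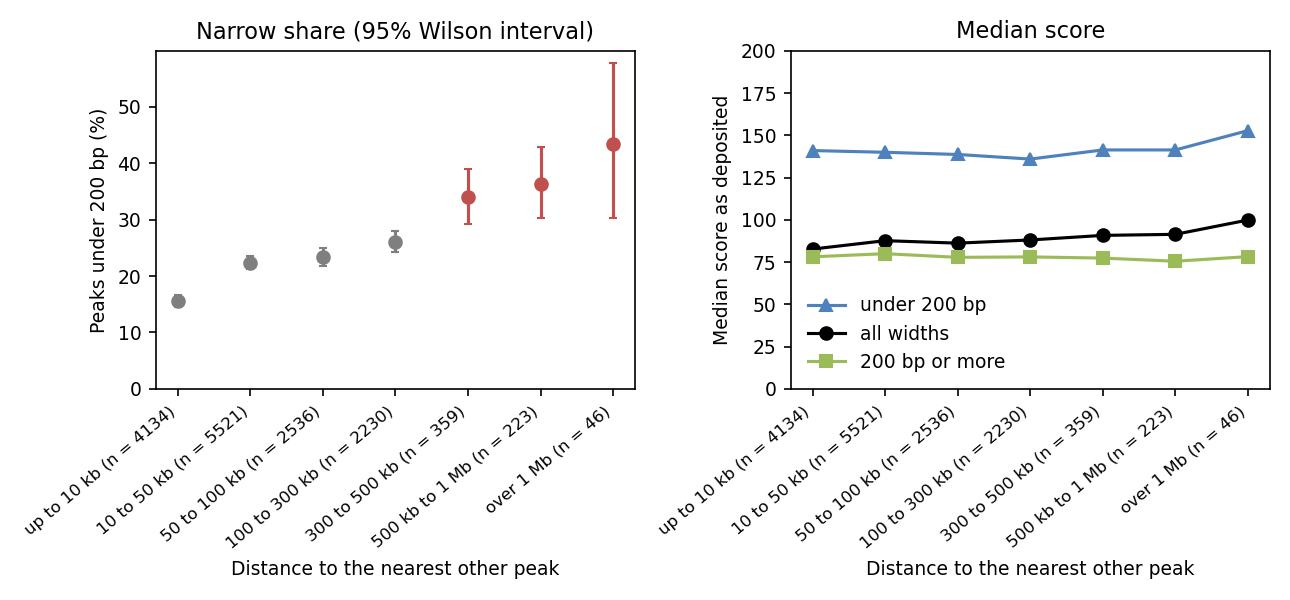
Left, share of peaks under 200 bp (y axis, %, 95% Wilson intervals) by distance to the nearest other peak (x axis, with the number of peaks); red marks the classes beyond 300 kb that hold the lone peaks. Right, median score over all widths and for peaks under and from 200 bp. The narrow share runs from 15.5% to 43.5%, while the median score of peaks of 200 bp or more stays between 75.5 and 80.0.

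Peaks close to the limit on its inner and outer side are given for description. The 100 lone peaks closest to it, with neighbours 300.2 to 344 kb away, held 34 narrow peaks (95% Wilson interval 25.5 to 43.7%) and had a median width of 303 bp and a median score of 91.0. The 100 peaks just under it, at 278 to 299.9 kb, held 29 narrow peaks (21.0 to 38.5%) and had a median width of 341.5 bp and a median score of 84.0. The intervals of the narrow shares overlapped, and groups of this size do not show whether the values step at the limit. The 5 lone peaks nearest to the limit had neighbours from 300.2 to 301.9 kb away. They lay on chromosomes 4, 13, 6, 8 and 18, were 295, 606, 333, 417 and 182 bp wide in that order, and scored 69.5, 147, 55.6, 76.5 and 141. The 5 peaks that just missed it had neighbours from 299.5 to 299.9 kb away. Of these, 2 were each other's neighbour on chromosome 6, at 8159278 to 8159749 with a score of 58.8 and at 8459637 to 8460427 with a score of 159. The other 3 lay on chromosomes 13, 1 and 4, with scores of 206, 80.2 and 103.

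The surroundings of the lone peaks were sparse but not uniform, and the narrow share was compared within classes of local density. With 3 to 5 other peaks within 1 Mb, 36.1% of lone peaks were narrow (95% Wilson interval 29.8 to 42.9%, n = 205) against 26.0% of other peaks (22.8 to 29.4%, n = 682). With 6 to 9, the shares were 40.1% (32.3 to 48.5%, n = 137) and 24.9% (22.9 to 27.1%, n = 1618). With 0 to 2 they were 34.4% (28.1 to 41.3%, n = 195) and 28.5% (21.9 to 36.1%, n = 151), and with 10 or more they were 29.7% (21.3 to 39.7%, n = 91) and 20.3% (19.6 to 21.0%, n = 12008). The narrow share of lone peaks was the higher one in each of the 4 density classes, and in the sparsest class the intervals overlapped. The class of 10 or more has no upper limit, so density was not matched within it. Over all classes, the median number of peaks within 1 Mb was 4 around lone and 18 around other peaks.

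Peaks next to a lone peak, and pairs of peaks that were isolated together, gave a further comparison. The 790 peaks that adjoined a lone peak without being lone themselves were narrow in 27.5% of cases (95% Wilson interval 24.5 to 30.7%), between the shares of lone and of other peaks, and had a median score of 85.5. In 34 places, 2 peaks lay within 10 kb of each other with no further peak within 300 kb on either side. Of these 68 peaks, 15 were narrow (22.1%, 13.8 to 33.3%), an interval that takes in the share of other autosomal peaks and overlaps that of lone peaks. In 22 of the 34 pairs neither peak was under 200 bp, and in 3 pairs both were.

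Strong lone peaks of 200 bp or more did exist, at about the rate of the rest of the list. A peak was called strong when its score was at or above the 90th percentile of autosomal peaks, 172.5. Of the 405 lone peaks of 200 bp or more, 22 were strong, or 5.43% (95% Wilson interval 3.61 to 8.09%). Of the 11400 other peaks of that width, 606 were strong, or 5.32% (4.92 to 5.74%). At the 99th percentile, a score of 326, 4 lone peaks of that width remained, or 0.988% (0.385 to 2.51%), against 56 of the other peaks, or 0.491% (0.379 to 0.637%). Over all widths, 75 lone peaks were strong, or 11.9% (9.63 to 14.7%), against 1440 other peaks, or 9.96% (9.48 to 10.5%). Of the 75 strong lone peaks, 53 were under 200 bp. Narrow peaks were also the larger part of the strong other peaks, with 834 of 1440. Among narrow peaks the strong share was 23.8% for lone (18.7 to 29.8%) and 27.3% for other peaks (25.7 to 28.9%).

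The strongest lone peak of the list was also one of the widest. It lay at chr12:75904745-75905779 in mm9, was 1034 bp wide and scored 659, which ranked it 20 among all autosomal peaks. Its neighbours were 359 kb before it and 791 kb after it. The next strong one of 200 bp or more was chr6:103598965-103599531, 566 bp wide with a score of 455 and a rank of 43. The peak that followed it on the chromosome, 718 kb on, was itself a strong lone peak, chr6:104317499-104318149, 650 bp wide with a score of 179. Chromosome 6 held 5 of the 22 strong lone peaks of 200 bp or more, the highest number of any autosome. A further one of them, chr6:3476772-3477122, was 350 bp wide and scored 337.

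The remaining lone peak above the 99th percentile with a width of 200 bp or more was the one on chromosome 1 in the longest series, with a score of 344. Below it came chr3:125641097-125641695 (598 bp, score 308), chr12:64958504-64958815 (311 bp, score 273) and chr7:131815983-131816475 (492 bp, score 258). The peak at chr5:50449453-50450564 was 1111 bp wide, scored 248 and had a single other peak within 1 Mb. The list of the 10 strongest of this width was completed by chr3:5216295-5216541 (246 bp, score 233) and chr12:36219095-36219893 (798 bp, score 208). In median width and score, the strong lone peaks were close to strong peaks elsewhere in the list. The 22 strong lone peaks had a median width of 582 bp and a median score of 198, and the 606 strong other peaks of 200 bp or more had medians of 576 bp and 205. Of the 22, 14 were over 450 bp wide, 2 were 350 to 450 bp and 6 were 200 to under 350 bp. Their nearest neighbours lay 519 kb away at the median, against 28.5 kb for the strong other peaks, a difference set by the rule for lone peaks.

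**Figure D4:**
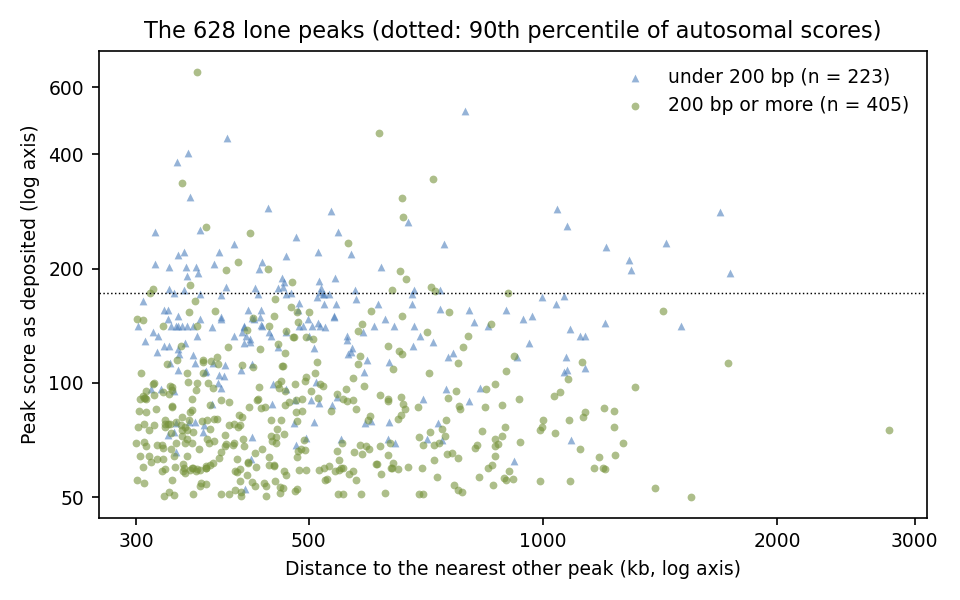
Score (y axis, log scale) against distance to the nearest other peak (x axis, kb, log scale) for each of the 628 lone peaks, 223 under 200 bp (triangles) and 405 of 200 bp or more (circles). The dotted line is the 90th percentile of autosomal scores, 172.5. Above it lie 53 narrow and 22 wider lone peaks, and beyond 1 Mb the peaks above it are all narrow.

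Of the 10 highest-scoring lone peaks of any width, 5 were under 200 bp. They were chr2:40335935-40336123 (188 bp, score 519), chr18:42168467-42168652 (185 bp, score 442), chr17:4172274-4172440 (166 bp, score 403), chr6:143893084-143893281 (197 bp, score 381) and chr18:16613163-16613325 (162 bp, score 309). The first of these ranked 32 among all autosomal peaks by score, and its neighbours were 1059 and 793 kb away. Among the 10 highest-scoring lone peaks, narrow and wide ones were thus present in equal number. Of the lone peaks at or above the 90th percentile, 53 were narrow and 22 were 200 bp or more.

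The most remote lone peaks were not the strongest. The farthest, chr3:112835049-112835465, had empty stretches of 2.78 Mb before and 3.12 Mb after it. It was 416 bp wide and scored 75.3, below the median of the lone peaks. A narrow peak at chr7:11242214-11242370 (score 194) was 1.74 Mb from its nearest neighbour, and a peak of 236 bp at chr15:47877242-47877478 (score 113) was 1.73 Mb away. The peak at chr1:113650871-113651030 (159 bp, score 283) stood 1.69 Mb from the nearest peak and had 5.28 Mb without a peak on its other side. The fifth, chr3:46732366-46732780, was 1.55 Mb from its neighbour and had the lowest score of all lone peaks, 50.1. Scores of these 5 peaks ran from the lower end of the list to above the 90th percentile. Over all widths, the median score was 99.9 beyond 1 Mb (95% interval for the median 80.0 to 133, n = 46). At 300 to 500 kb it was 90.8 (85.8 to 97.6, n = 359), so the intervals overlapped. None of the 26 lone peaks of 200 bp or more beyond 1 Mb was strong (95% Wilson interval 0 to 12.9%). At this small number the interval takes in the 5.32% of other peaks, and a difference was not tested.

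The widest lone peak, chr7:37482258-37483428, measured 1170 bp and scored 175. The peaks on chromosomes 5 and 12 of 1111 and 1034 bp named above came next. They were followed by chr8:75876638-75877590 (952 bp, score 155) and chr3:55986858-55987805 (947 bp, score 198). Of the 5 widest, 4 were strong.

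Lone peaks were found on all 19 autosomes. Chromosome 1 had the most, 53, and chromosome 19 the fewest, 11. As a share of eligible peaks, chromosome 3 was highest with 6.28% (46 peaks, 95% Wilson interval 4.74 to 8.28%) and chromosome 19 lowest with 2.24% (1.26 to 3.97%). Chromosomes 1 and 3 had intervals above the pooled 4.17%, and chromosomes 11 (2.59%, 1.80 to 3.71%) and 19 had intervals below it. The share followed the density of peaks, on which it depends by its definition. The 5 sparsest autosomes were chromosomes 1, 14, 3, 16 and 6, with 4.69 to 5.21 peaks per Mb between their first and last peaks, and their lone shares were 5.48 to 6.28%. The 2 densest, chromosomes 11 and 19, had 9.17 and 8.50 peaks per Mb and shares of 2.59% and 2.24%. Not all chromosomes kept this order. At 6.79 and 6.71 peaks per Mb, above the pooled 6.28, chromosomes 15 and 8 had 5.15% (3.73 to 7.08%) and 4.91% (3.65 to 6.57%) lone peaks. Chromosome 18, at 5.99 peaks per Mb, had 5.61% (3.93 to 7.94%). The intervals of chromosomes 15, 8 and 18 take in the pooled share. Per length, chromosome 15 had the most lone peaks, 0.349 per Mb, followed by chromosome 18 with 0.335 and chromosome 8 with 0.328.

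Lone peaks also lay unevenly along the chromosomes. With each autosome divided into 5 equal stretches between its first and last peak, the stretch at the lowest coordinates, nearest the centromere in the mouse, held 162 lone peaks, or 6.52% of its eligible peaks (95% Wilson interval 5.62 to 7.56%). The following stretches had 5.59%, 4.85% and 3.79%, and the last had 78 lone peaks, or 1.82% (1.46 to 2.27%). The number of eligible peaks went from 2483 in the first to 4282 in the last stretch, so the sparser end of the chromosomes held more lone peaks both in number and in share.

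The excess of narrow peaks was spread over the chromosomes. The narrow share was higher among lone than among other peaks on 19 of 19 autosomes, and the median width was lower on 19 of 19. On 6 of them the Wilson intervals of the narrow shares did not overlap. The shares were farthest apart on chromosome 14, with 48.4% of 31 lone peaks against 23.3% of the others, and on chromosome 13, with 50.0% of 32 lone peaks against 26.0%. They were closest on chromosome 12, with 26.7% of 30 against 24.4%, and on chromosome 5, with 26.5% of 34 against 23.1%. The median score was higher among lone peaks on 15 of 19 autosomes, and lower on chromosomes 2, 3, 4 and 8. Strong lone peaks of 200 bp or more were present on 11 of 19 autosomes.

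**Figure D5:**
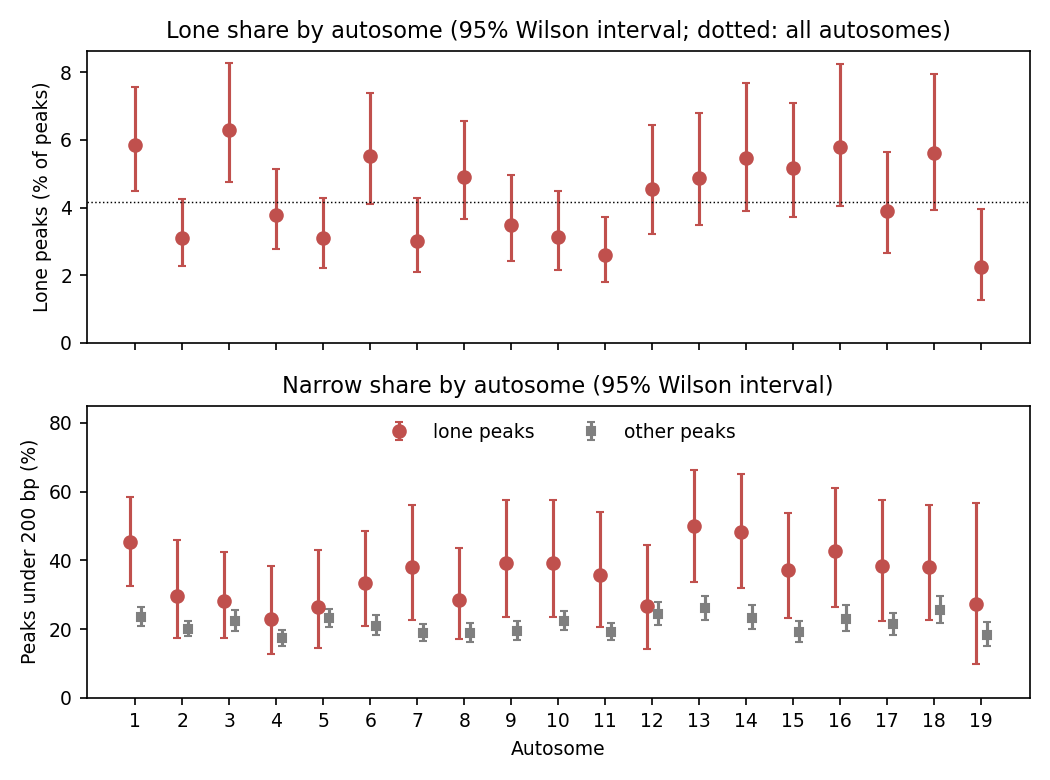
Top, lone peaks as a share of eligible peaks (y axis, %) for each autosome (x axis), with the pooled 4.17% as a dotted line. Bottom, share of peaks under 200 bp among lone and other peaks. Bars are 95% Wilson intervals. Chromosomes 3 (6.28%) and 19 (2.24%) mark the extremes of the lone share, and the narrow share of lone peaks is the higher one on 19 of 19 autosomes.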

How the data were processed

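The list of Ehf peaks holds a chromosome, start, end, name and score per peak, and was the only processed file analysed. The score is the authors' value, as deposited, and its scale is not stated. The lowest is 50.01. Per the submitters' processing notes, Bowtie 0.12.7 and bedtools 2.11.2 were used with the build mm9, and the deposited peak names begin with MACS_peak. For the caller's version, its settings and the use of the input, nothing is given in the sources used here. Start and end are other numbers in bp, printed as in the deposited list. No peak ended beyond its mm9 chromosome (lengths from GenomeInfoDb 1.38.1), while 91 would in mm10. Genome tables of another build were not used, so the planned description of sequence, motifs and genes was not run.

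Peaks were sorted and distances taken edge to edge. The first and last peaks of a chromosome counted as neighbours and in the comparison set, not as members. Shares carry 95% Wilson intervals and medians exact binomial intervals. No test was run, because each group has 1 library. Peaks were named by rule as the 10 highest-scoring lone peaks, the 10 highest of 200 bp or more, the 5 farthest, the 5 widest and the 5 on each side of the limit, with the extreme autosomes and the longest series. The other series, the further peak on chromosome 6 and the chromosomes set beside the extremes, 8, 15 and 18 included, were singled out after their values were seen. The members, limits and width classes were chosen with earlier results of these data known. A single distance class beyond 300 kb was planned, and its division at 500 kb and 1 Mb was not. The distance, width, score and merging alternatives are given at the end. The search for lone peaks was checked on simulated lists. Python 3.11.15, numpy 2.4.6, pandas 2.3.3, scipy 1.17.1 and matplotlib 3.10.9 were used.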

Additional observations from a re-analysis of the deposited data

How the results depend on the processing

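The direction of the width difference and the higher narrow share of lone peaks were found under each alternative that could give them. The number of lone peaks was 1191 at a limit of 200 kb and 269 at 500 kb, by the construction of the limit. The strong ones of 200 bp or more then numbered 41 and 11, for the same reason. These were 5.06% and 6.55% of the lone peaks of that width, against 5.34% and 5.30% of the other peaks. With only peaks of 200 bp or more kept, the difference of median scores turned to -0.625 and that of widths was -21 bp. Then 37 lone peaks were strong, because narrow peaks no longer counted as neighbours. They were 5.69% of the lone peaks, against 5.30% of the others. Within 4 width classes the score difference was 0.727. With only peaks at or above the median score, 871 peaks were lone, 47.1% of them narrow (35.7% of others), and the width difference was -111 bp. Of these lone peaks, 63 were strong and 200 bp or more wide. They were 13.7% of the lone peaks of that width, against 13.1% of the others. Narrow limits of 180 and 250 bp gave 31.7% and 42.5% (others 18.5% and 26.0%). At the 99th percentile 4 strong lone peaks were left. Midpoint distances, merging of peaks up to 1 kb apart, keeping first and last peaks and reweighting by chromosome moved no value beyond its interval or a count by over 1.5 times. The list leaves out what fell short of the authors' threshold, so a lone peak may have weaker neighbours at this unknown depth, and unsequenced or repeated stretches were not set apart from empty ones. No paired analysis was possible because the series has a single library of each kind.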

Other observations

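Chromosome X was outside the rule, and the same limit of 300 kb was applied to it for its values only. Of its 287 peaks between the first and the last, 69 were lone, or 24.0% (95% Wilson interval 19.5 to 29.3%), against 4.17% on the autosomes. This share depends on the density of peaks by its definition, and the 2 shares were not compared at equal density. The nearest neighbours of the 69 lone peaks were 660 kb away at the median. Of these 69 peaks, 26 were under 200 bp (37.7%, 27.2 to 49.5%), against 33.6% of the other 220 peaks on X, so that narrow peaks were frequent in both sets there. Their median score was 90.1, close to the 91.5 of the autosomal lone peaks, and 2 of them were strong and 200 bp or more wide.

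Of the first and last peaks of the autosomes, 13 of 38 were more than 300 kb from their only neighbour. Of these, 3 were under 200 bp, and their scores had a median of 99.1 and a maximum of 147.

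Many narrow lone peaks carried the same score to the second decimal, a feature noticed after the values were seen. The scores below were picked by their number among narrow lone peaks, which favours a higher share there. Whether the shares of single scores differ between the sets was not tested. The score 141.34 was given to 17 of the 223 narrow lone peaks (7.62%, 95% Wilson interval 4.81 to 11.9%) and to 84 of the 3059 other narrow peaks (2.75%, 2.22 to 3.39%). The score 132.93 followed, with 10 of the narrow lone peaks (4.48%, 2.45 to 8.06%) and 55 of the others (1.80%, 1.38 to 2.33%). For the next 4 scores in number the intervals overlapped. They were 170.96 (3.14% of narrow lone and 2.19% of other narrow peaks), 146.92 (2.69% and 1.77%), 156 (2.24% and 1.47%) and 201.7 (1.79% and 1.80%). Scores held by at least 10 autosomal peaks were carried by 60.1% of narrow lone peaks and 55.7% of other narrow peaks, against 27.9% and 25.9% at 200 bp or more.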
